A study of Mus musculus with 36 samples.

Results

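The 10 genes described here encode 4 of the 5 NF-kappaB transcription factor subunits (Nfkb1, Nfkb2, Rel and Relb), 4 proteins that feed back on the pathway (Nfkbia, Tnfaip3, Nfkbiz and Traf1) and 2 well-known products of it (Tnf and Sod2). They were taken by symbol from 2 deposited tables of gene expression in mouse eosinophils, granulocytes of blood and mucosal tissues. All 10 were present in both tables, which held 9844 genes (tissue eosinophils) and 8001 genes (sorted small intestine eosinophils), or 9904 genes in either table. The genes were grouped by their known roles, and the choice was made with earlier results of these data known.

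NF-kappaB factors are dimers of Rel-family proteins that are held in the cytoplasm by inhibitor proteins until a signal, such as TNF, IL-1 or a Toll-like receptor ligand, has the inhibitor destroyed. The freed dimers switch on inflammatory genes, and among these are the genes of their own inhibitors and of several subunits, so that the response is damped by its own products. In eosinophils the pathway is known for its part in survival and in the production of cytokines and chemokines.

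Total eosinophils were flow-sorted from wild-type C57BL/6 mice of 8 to 12 weeks, of both sexes pooled, with no challenge given. They came from small intestine (4 libraries), colon (3), skin (3), lung (3), spleen (4), bone marrow (3) and blood (4). A second set held small intestine eosinophils of C57BL/6 mice of the same ages carrying the NMUR1-TdT reporter, a fluorescent marker of Nmur1, the neuromedin U receptor gene, as 5 Nmur1+ and 6 Nmur1- libraries. Libraries were full-length Smart-seq2 cDNA, and the values are TPM, a length-scaled transcript abundance, which keeps no record of sequencing depth, so the depth behind each value is unknown. Whether each library stands for its own mouse is not in the labels, and the p-values reflect only how far libraries of a group vary, in part perhaps for technical reasons. In pooled-cell RNA, fewer expressing cells and less RNA per cell cannot be told apart.

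Small intestine, colon, skin and lung are called barrier tissues below, and spleen, bone marrow and blood are called central. A gene was called when its limma adjusted p, over all genes tested, was below 0.05. Log2 changes are on the log2(TPM + 1) scale, which understates the changes of low genes, and a relative change has the median gene of that comparison subtracted. Lung libraries sat apart in this respect, since the median gene differed by 0.58, 0.56 and 0.56 on the log2 scale in small intestine, colon and skin against lung. Siglecf, an eosinophil surface receptor, was at 105 TPM or more in every tissue library and Ccr3, the eotaxin receptor, at 274 TPM or more, whereas the granule peroxidase Epx was at 0 in every colon library and at 1.70 TPM or less in skin. Of the 11 eosinophil markers listed, 9 were called lower and 1 higher in barrier tissues, and their sum was 1910 to 4286 TPM in barrier libraries, against 8308 to 44120 in spleen, 101092 to 140761 in marrow and 3208 to 3531 in blood. Nmur1 itself was at 25.9 to 53.1 TPM in Nmur1+ libraries, against 0 to 15.6 TPM in Nmur1- libraries. The skin library numbered 4 correlated less with its own group (mean r of 0.92) than the other skin libraries did (0.94 and 0.93). Calls of members between tissues that changed without it are given both ways, and other skin values include it. Spleen libraries were no closer to each other, with a mean r of 0.921 to 0.926 within their group. The highest r of a spleen library with a library of another tissue was 0.927 to 0.935.

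Every member was higher in barrier eosinophils than in central eosinophils. All 10 were called higher, in a comparison in which 22.4% of 9806 genes were called higher and 31.1% lower. For 9 of the 10, every one of the 13 barrier libraries was above every one of the 11 central libraries, as was true of 2.87% of all genes. The members had a median relative change of 4.2 (log2), with a range of 1.47 to 7.16, and the largest adjusted p was 2.82e-12 (limma). They differed widely among themselves in how far they stood apart, and the subunit Nfkb1 and the target Sod2 had the smallest changes of the 10.

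**Figure D1:**
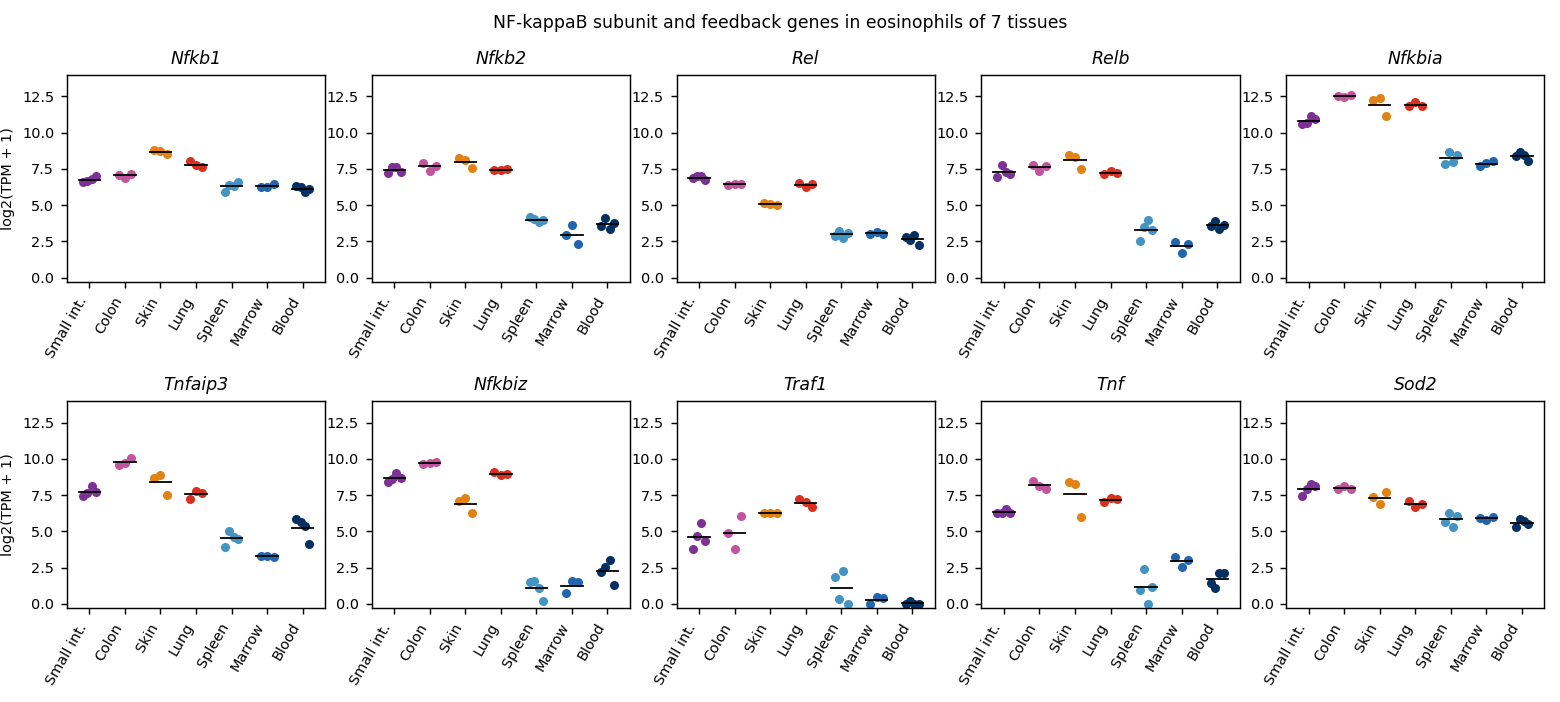
Level of each gene in every tissue library, as log2(TPM + 1) on the vertical axis, with tissues along the horizontal axis. Points are libraries and lines are means of the log2 values. For all genes but Nfkb1, the 13 points of small intestine, colon, skin and lung lie above the 11 points of spleen, marrow and blood.

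Nfkb1 (chr3:135584655-135691547, minus strand, GRCm38) encodes the precursor of a subunit without an activation domain. Its TPM values were 93.6, 102, 108 and 127 in small intestine, 136, 117 and 140.2 in colon, 451, 424 and 361 in skin, and 256, 214 and 193 in lung. They were 59.6, 84.1, 78.4 and 96.8 in spleen, 74.3, 73.9 and 86.3 in marrow, and 76.6, 76.1, 58.8 and 67.2 in blood. Every skin library was above every library of the other tissues, while small intestine lay so close to the central tissues that the ranges overlapped. The barrier mean was 2.87 times the central mean (log2 change 1.31 ± 0.09 SE), the smallest change of the 10 members. Small intestine eosinophils were still called higher than blood eosinophils (log2 change 0.62, adjusted p = 0.00171, limma), but with quantile normalization the change was 0.27 and the adjusted p = 0.129.

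Nfkb2 (chr19:46304320-46312385, plus strand) encodes the precursor of the subunit that pairs with RelB in the non-canonical pathway. Its TPM values were 147, 197, 197 and 153 in small intestine, 234, 166 and 210.2 in colon, 305, 275 and 185 in skin, and 166, 169.7 and 182 in lung, against 3.86 to 16.7 over all central libraries. The 4 barrier tissues formed a narrow band far above the others. The ratio of means was 17.5, with a log2 change of 4.08 ± 0.13. None of the 6 comparisons between barrier tissues called Nfkb2, although without the skin library numbered 4 it was higher in skin than in lung (adjusted p = 0.0374, limma) and lower in small intestine than in skin (0.0394). Both were also called with a pseudocount of 10 TPM (adjusted p = 0.0345 and 0.0279).

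Relb (chr7:19606217-19629438, minus strand), the partner of the Nfkb2 product, followed a like course. It was at 123, 218, 150.5 and 142 TPM in small intestine, 219, 163 and 203 in colon, 344, 317 and 177 in skin, and 139, 161 and 144 in lung, against 2.26 to 14.4 TPM in the central libraries. Its barrier mean was 24.1 times the central mean (log2 change 4.53 ± 0.15), the largest change among the subunits. Marrow was lowest, at 4.41, 2.26 and 3.98 TPM, below all 4 blood libraries, which held 10.7, 13.8, 9.12 and 11.5 TPM (log2 change -1.46, adjusted p = 0.000227, limma).

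Rel (chr11:23736847-23770970, minus strand) encodes c-Rel, an activating subunit of lymphoid and myeloid cells. It was at 117, 126, 126 and 104 TPM in small intestine, 80.4, 86.3 and 86.8 in colon, 34.1, 32.3 and 31.8 in skin, and 89.8, 75.2 and 84.4 in lung, against 3.83 to 8.42 TPM in the central libraries. Skin, where Nfkb1, Nfkb2 and Relb had their highest means, was the lowest barrier tissue for Rel, and no skin library reached the range of another barrier tissue. The ratio of barrier to central means was 12.2 and the log2 change 3.30 ± 0.11. Rela, the remaining subunit and no member of the set, had a barrier mean of 90.8 TPM and a central mean of 28.9 TPM (log2 change 1.63, adjusted p = 4.5e-11, limma).

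The makeup of the subunit transcripts differed between tissues. Of the summed TPM of Nfkb1, Nfkb2, Rel, Rela and Relb, Nfkb1 took 17.1 ± 2.8% in small intestine (SD, n = 4), 18.5 ± 0.5% in colon (n = 3), 39.4 ± 4.4% in skin (n = 3) and 30.2 ± 3.7% in lung (n = 3). The same share was 55.1 ± 6.1% in spleen (n = 4), 64.5 ± 6.0% in marrow (n = 3) and 54.9 ± 4.7% in blood (n = 4), so that Nfkb1 transcripts on average outnumbered those of the other 4 subunits together in each central tissue and in no barrier tissue. Rel took 18.7 ± 2.0% in small intestine and 3.16 ± 0.64% in skin. Relb took 24.6 ± 3.8% in small intestine and 2.95 ± 1.02% in marrow. The summed level itself was 636 TPM in small intestine, 709 in colon, 1064 in skin and 729.6 in lung, against 144 in spleen, 121 in marrow and 127 in blood. These shares are descriptions, with no test.

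**Figure D2:**
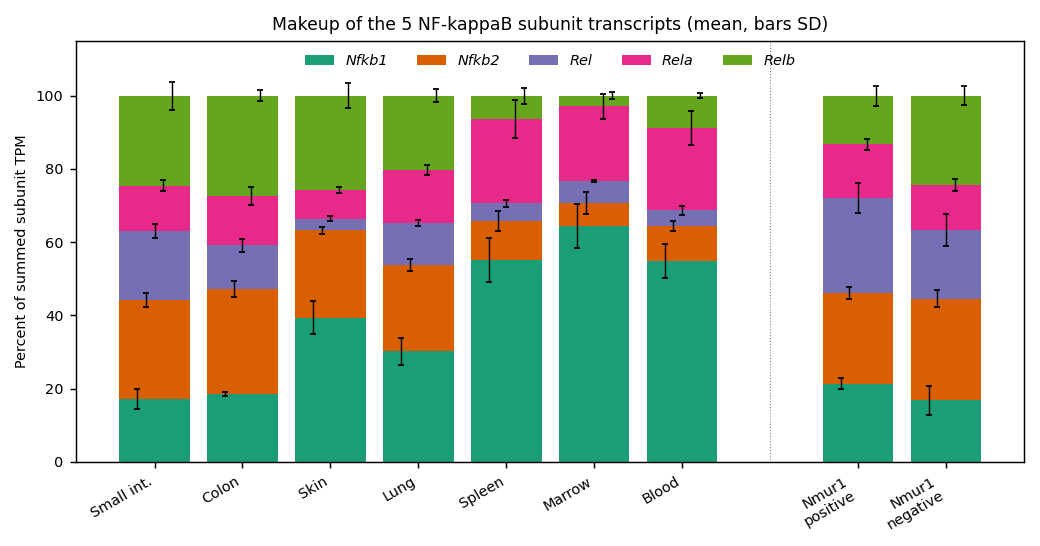
Share of each subunit in the summed TPM of the 5 NF-kappaB subunit genes, in percent (vertical axis), for 7 tissues and for Nmur1 positive and negative small intestine eosinophils (horizontal axis). Segments are group means and bars are SD over libraries. Nfkb1 takes 64.5% in marrow and 17.1% in small intestine, and Relb takes 13.3% in Nmur1 positive and 24.4% in Nmur1 negative cells.

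Nfkbia (chr12:55489410-55492647, minus strand) encodes the main inhibitor that holds NF-kappaB in the cytoplasm, and its transcription is induced by NF-kappaB. It was the most abundant member in every tissue. Its TPM values were 1506, 1597, 2237 and 1955 in small intestine, 5883, 5482 and 6272 in colon, 4757, 5234 and 2304 in skin, and 3563, 4364 and 3632 in lung. They were 226, 403, 254 and 343 in spleen, 206, 237 and 256 in marrow, and 339, 404, 344 and 259 in blood. Small intestine was the lowest barrier tissue, with all 4 libraries below every other barrier library, and still far above the central ones. The ratio of barrier to central means was 13.4 (log2 change 3.63 ± 0.12). Set against the summed subunit TPM, Nfkbia stood at a ratio of 2.88 ± 0.51 in small intestine, 8.33 ± 0.57 in colon, 3.76 ± 0.88 in skin and 5.28 ± 0.65 in lung, and at 2.12 ± 0.44 in spleen, 1.92 ± 0.17 in marrow and 2.64 ± 0.37 in blood (SD). By that ratio small intestine (2.23 to 3.35) overlapped blood (2.12 to 2.98), and colon stood above all other tissues.

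Tnfaip3 (chr10:19000910-19015657, minus strand) encodes a ubiquitin-editing enzyme that shuts off signalling upstream of NF-kappaB. It was at 174, 202, 281 and 204 TPM in small intestine, 779, 836 and 1077 in colon, 412, 479 and 182 in skin, and 148, 223 and 200.4 in lung. In the central tissues it was at 14.3 to 31.1 TPM in spleen, 8.50 to 8.95 in marrow and 16.3 to 56.5 in blood. Every colon library exceeded every library of the other tissues. The ratio of barrier to central means was 17.3 (log2 change 4.02 ± 0.18).

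Nfkbiz (chr16:55811375-55838899, minus strand) encodes a nuclear protein of the inhibitor family that also acts as a coactivator of secondary response genes. It was at 345, 393, 518 and 404 TPM in small intestine, 784, 818 and 866 in colon, 133, 159.9 and 75.1 in skin, and 537, 471 and 488 in lung, against 0.17 to 7.23 TPM in the central libraries. It was near 0 in all central libraries and above 75 TPM in all barrier ones. Its log2 change of 7.01 ± 0.18 ranked 9 among the 9806 genes tested, from the largest rise down, at a pseudocount of 1 TPM.

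Traf1 (chr2:34941750-34961772, minus strand) encodes an adaptor that binds TNF receptors and limits or prolongs their signals. It was at 13, 25.2, 45.6 and 19.4 TPM in small intestine, 28.1, 12.4 and 64.8 in colon, 74.4, 75.4 and 74.0 in skin, and 147, 129 and 101 in lung. It was listed at 0 in 3 of 4 blood libraries, 1 of 3 marrow libraries and 1 of 4 spleen libraries, and its highest central value was 3.76 TPM, in spleen. Lung was highest, with each library above every library of the other tissues, and the colon libraries were the most uneven. Limma did not separate lung from skin (adjusted p = 0.288), except in a fit of these tissues alone (0.0215). The log2 change of 5.20 ± 0.27 rests on the pseudocount for the libraries at 0, and it lay between 2.57 and 7.40 over the alternatives tried.

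The cytokine gene Tnf (chr17:35199381-35202007, minus strand) is both a product and a trigger of NF-kappaB. It was at 76.7, 75.7, 91.1 and 77.3 TPM in small intestine, 355, 283 and 245 in colon, 337, 299.8 and 63.5 in skin, and 129, 156 and 146 in lung, against 0 to 8.58 TPM in the central libraries. The small intestine libraries agreed closely, whereas the skin library numbered 4 was below them all and the other skin libraries were near the colon range. The log2 change between barrier and central tissues was 5.39 ± 0.25.

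Sod2 (chr17:13006846-13040063, plus strand) encodes the mitochondrial superoxide dismutase, which NF-kappaB induces as a protection against TNF-driven oxidative damage. It was at 171, 244, 302 and 276 TPM in small intestine, 244, 278 and 243 in colon, 165, 117 and 204 in skin, and 135, 99.5 and 114 in lung, against 38.9 to 74.9 TPM in the central libraries. The 2 gut tissues were highest, and the gap to the central tissues was small beside that of the other targets. The ratio of barrier to central means was 3.60 (log2 change 1.76 ± 0.12).

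**Figure D3:**
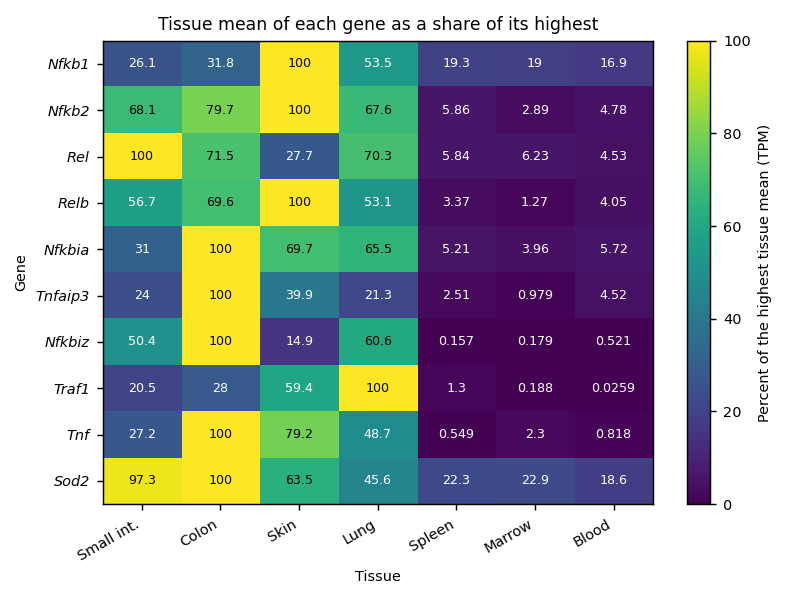
Mean TPM of each gene (rows) in each tissue (columns) as a percent of that gene's highest tissue mean, given by colour and printed in each cell. Skin holds the highest mean of Nfkb1, Nfkb2 and Relb, small intestine that of Rel, lung that of Traf1 and colon that of the other 5 genes. Nfkb1 and Sod2 keep between 16.9 and 22.9% of their highest mean in spleen, marrow and blood, and the other genes 6.23% or less.

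The tissue order differed between members, and many neighbours in it could not be separated. For Nfkbia the order was colon, skin, lung, small intestine, blood, spleen and marrow, with means of 5879, 4098, 3853, 1824, 336, 306 and 233 TPM. In that order lung was separated from small intestine (adjusted p = 0.000223, limma) and small intestine from blood (adjusted p = 2.62e-10), and no other neighbours were (adjusted p from 0.0754 to 0.992). For Nfkb1 the order was skin, lung, colon, small intestine, spleen, marrow and blood, with skin separated from lung (adjusted p = 0.000212, but 0.172 under median-ratio scaling), lung from colon (0.00175) and small intestine from spleen (0.022). For Rel it was small intestine, colon, lung, skin, marrow, spleen and blood, with lung separated from skin (adjusted p = 3.32e-05) and skin from marrow (4.19e-08). For Nfkb2 and Relb, no neighbouring barrier tissues were separated.

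Taken 1 tissue at a time against blood, all 10 members were higher in small intestine, where 26% of all genes were called higher, in colon (19.9%), in skin (22.9%) and in lung (8.99%). The largest adjusted p of a member in these 4 comparisons was 0.00171 (Nfkb1 in small intestine, limma). All 4 share the blood libraries, so they are not independent of each other. No library was needed for the calls, since all 10 were called in every fit that left out 1 library, in small intestine (8 fits), colon (7), skin (7) and lung (7).

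Within the central tissues, members differed between marrow and blood. In spleen against blood, limma called 0 of the 10 members, where 1.09% of all genes were called, and 3 members had an unadjusted p under 0.05. In marrow against blood, Tnfaip3 and Relb were lower, at 8.95, 8.91 and 8.50 TPM of Tnfaip3 in marrow against 56.5, 48.6, 40.9 and 16.3 TPM in blood (log2 change -1.95, adjusted p = 4.1e-05, limma), and the change of Relb was -1.46 (adjusted p = 0.000227). Nfkbiz (adjusted p = 0.0217) and Nfkb2 (0.0218) were also called lower and Tnf higher (0.0395), where 15.3% of all genes were called lower and 19.3% higher. These 3 calls were lost with a pseudocount of 10 TPM, and from 2 to 6 members were called when 1 library was left out: 2 without marrow library 1 or blood library 2, and 3 without marrow library 3.

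Between small intestine and colon, 3 of 10 members were lower in small intestine and none was called higher, where 7.1% of all genes were called lower and 5.63% higher. These were Nfkbia (log2 change -1.70, adjusted p = 2.96e-06, limma), Tnfaip3 (-2.06, 5.72e-05) and Tnf (-1.85, 0.00635). The 4 subunits were not called, and 1 member, Rel, had an unadjusted p under 0.05 in the higher direction, at 118 ± 10.3 TPM in small intestine (SD, n = 4) and 84.5 ± 3.6 TPM in colon (n = 3). The Tnf call was lost with a pseudocount of 0.1 TPM (adjusted p = 0.125), and with a pseudocount of 10 TPM Nfkbiz and Rel were called as well, 5 in all. Nfkbiz, with a log2 change of -1.0 and an adjusted p = 0.0531, was also called with a filter of 10 TPM (adjusted p = 0.0463), with quantile normalization (0.023), with the replicate block (0.0105), in a fit of these tissues alone (0.00042) and without small intestine library 3 (0.0491).

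Between small intestine and skin, 8 of the 10 members were called, in both directions. Rel (log2 change 1.82, adjusted p = 9.85e-08, limma), Nfkbiz (1.80, 0.000168) and Sod2 (0.62, 0.0327) were higher in small intestine, where 16% of all genes were called higher. Nfkb1 (-1.93, 8.3e-10), Nfkbia (-1.10, 0.000325), Traf1 (-1.64, 0.0135), Relb (-0.79, 0.0339) and Tnf (-1.21, 0.0456) were lower, where 16.2% of all genes were called lower. The number fell to 5 with a pseudocount of 0.1 TPM and in 5 of the 7 fits that left out 1 library, namely without skin library 1 or 2 or small intestine library 1, 3 or 4. Without the skin library numbered 4 all 10 were called. Nfkbia, Nfkbiz, Nfkb1 and Rel were called in every alternative tried.

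Colon eosinophils had more Nfkbiz (log2 change 2.80, adjusted p = 3.45e-06, limma), Rel (1.34, 7.47e-05), Tnfaip3 (1.42, 0.00512) and Sod2 (0.68, 0.042) than skin eosinophils, where 9.33% of all genes were called higher. They had less Nfkb1 (-1.65, 2.07e-07), where 8.9% of all genes were called lower. Without the skin library numbered 4 the change of Tnfaip3 was 1.0 with an adjusted p = 0.0537, and that of Tnf was -0.13, against 0.64 with it. The Sod2 call was lost in 7 of the alternatives.

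For comparisons with lung, changes relative to the median gene are given first, since the median gene itself was 0.56 to 0.58 lower in lung. Small intestine had less Traf1 (relative change -2.95, adjusted p = 0.000379, limma), Nfkbia (-1.67, 0.000223) and Nfkb1 (-1.61, 1.43e-05) and more Sod2 (0.48, 0.00027) than lung. The call of Rel there (adjusted p = 0.0439) went with a relative change of -0.08, was lost under quantile normalization (0.709) and in 6 of the 7 fits without 1 library, and turned sign under median-ratio scaling. Tnf was called lower there under median-ratio scaling (log2 change -1.35, adjusted p = 0.0166) and quantile normalization (-1.16, 0.0382), with a pseudocount of 10 TPM (0.0466) and in a fit of both tissues alone (0.00142). Colon had more Tnfaip3 (relative change 1.68, adjusted p = 2.36e-05) and Sod2 (0.58, 0.000484) and less Traf1 (-2.64, 0.0034) and Nfkb1 (-1.30, 0.00175) than lung, and the call of Nfkbia (0.0409) went with a relative change of 0.06 and was lost under median-ratio scaling (0.816) and in 5 of the 6 fits without 1 library. Nfkbiz was not called between colon and lung (adjusted p = 0.12, limma). It was called higher in colon with a pseudocount of 10 TPM (0.00672), with the replicate block (0.015) and in a fit of both tissues alone (7e-04). Skin had less Nfkbiz (relative change -2.64, adjusted p = 5.88e-05) and Rel (-1.88, 3.32e-05) than lung. Skin Nfkb1 (relative change 0.34, adjusted p = 0.000212) and Relb (0.30, 0.0249) were called higher than lung, but not under median-ratio scaling (adjusted p = 0.172 and 0.54). That scaling also called skin Nfkbia lower than lung (log2 change -0.60, adjusted p = 0.0388), against 0.01 without it. Without the skin library numbered 4, 7 members were called between skin and lung in place of 4, with Tnfaip3 (1.24), Tnf (1.15) and Nfkb2 (0.75) added on the higher side. Of all genes, 39.1%, 31.9% and 34.5% were called higher and 11%, 6.32% and 8.03% lower in small intestine, colon and skin against lung.

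Promoter windows with a match to the kappaB consensus, the DNA motif of NF-kappaB, are shown so that the letters and their places can be compared. RefSeq (GRCm38.p6) gave promoter windows, the 250 bases before a gene's start, for 7 of the 10 members, in 10 windows. Nfkbiz, Nfkb1 and Relb had none in the table used. The 10-base kappaB consensus, searched on both strands, was found in windows of 5 of the 7 members (Nfkbia, Tnfaip3, Sod2, Nfkb2 and Rel) and not in those of Traf1 and Tnf. Of 27025 genes with a window, 8.23% held a match, as did 7.25% of 32851 windows. Each line below gives the gene, its window and the strand, read 5′ to 3′ towards the start, with matches in capitals. RefSeq's start lies inside the GENCODE bounds of Tnfaip3, Sod2, Nfkb2 and Rel.
Nfkbia chr12:55492648-55492897 minus strand: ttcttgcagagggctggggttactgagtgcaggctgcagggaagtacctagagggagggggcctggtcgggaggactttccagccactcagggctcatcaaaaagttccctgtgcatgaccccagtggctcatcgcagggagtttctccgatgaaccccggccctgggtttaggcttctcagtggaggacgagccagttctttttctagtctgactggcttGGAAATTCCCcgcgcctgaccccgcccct
Tnfaip3 chr10:19015411-19015660 minus strand: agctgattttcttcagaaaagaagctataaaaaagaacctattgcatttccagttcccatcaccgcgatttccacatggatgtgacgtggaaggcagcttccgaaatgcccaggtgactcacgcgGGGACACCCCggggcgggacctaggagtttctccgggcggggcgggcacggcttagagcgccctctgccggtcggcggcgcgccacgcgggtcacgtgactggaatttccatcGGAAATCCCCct
Sod2 chr17:13007589-13007838 plus strand: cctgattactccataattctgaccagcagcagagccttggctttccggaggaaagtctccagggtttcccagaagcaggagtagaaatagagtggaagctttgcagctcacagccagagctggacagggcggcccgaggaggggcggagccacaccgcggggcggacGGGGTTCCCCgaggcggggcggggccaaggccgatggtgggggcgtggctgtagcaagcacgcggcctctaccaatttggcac
Nfkb2 chr19:46304487-46304736 plus strand: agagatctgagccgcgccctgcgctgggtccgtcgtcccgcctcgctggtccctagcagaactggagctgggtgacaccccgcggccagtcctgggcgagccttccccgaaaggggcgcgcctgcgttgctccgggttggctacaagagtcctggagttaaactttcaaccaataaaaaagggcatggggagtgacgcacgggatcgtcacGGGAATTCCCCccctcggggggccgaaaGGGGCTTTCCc
Rel chr11:23770970-23771219 minus strand: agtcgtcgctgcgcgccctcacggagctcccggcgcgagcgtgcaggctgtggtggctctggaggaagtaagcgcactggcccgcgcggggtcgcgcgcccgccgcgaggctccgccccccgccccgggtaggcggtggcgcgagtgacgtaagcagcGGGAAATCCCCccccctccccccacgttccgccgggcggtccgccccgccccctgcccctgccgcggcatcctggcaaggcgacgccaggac
The single match of Nfkbia starts 29 bases before the gene's start. Tnfaip3 holds 2 in the window shown, at 125 and 12 bases, and 0 in its other window. Sod2 holds 1 at 83 bases, and Rel holds 2 overlapping matches at 92 and 91 bases. Nfkb2 holds 3 in the window shown, at 39, 38 and 11 bases, of which the first 2 overlap, and 1 match in each of its other 2 windows. Windows with 2 or more matches made up 1.03% of all windows. A match to the consensus is a description of the letters and not of a bound site.

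Other genes of the pathway, from lists that were drawn up with earlier results of these data known, mostly moved the same way. Of 104 genes listed, 89 were tested between barrier and central tissues, with a median relative change of 1.12. Of these, 61 were higher and 10 lower, where 22.4% of all genes were called higher and 31.1% lower. Among receptors, 7 of 10 were higher and 2 lower. Tnfrsf1b, the second TNF receptor, was at 91.3 TPM in barrier and 11.2 TPM in central tissues (log2 change 2.95, adjusted p = 7.56e-16, limma), and Tnfrsf1a, the main TNF receptor, was at 106 and 33.0 TPM (1.32, 2.6e-09). Tnfrsf1a was highest in small intestine, at 271 ± 34.9 TPM (SD, n = 4), and next in colon, at 73.1 ± 6.3 TPM (n = 3). Among adaptors and kinases 17 of 30 were higher and 5 lower, led by Irak2, a kinase of the IL-1 receptor pathway, at 102 TPM in barrier and 11.7 TPM in central tissues.

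Inhibitors other than the members rose in 10 of 15 cases and none was called lower or had an unadjusted p under 0.05 in that direction. Bcl3, Nfkbid and Nfkbie, inhibitor-family proteins like that of Nfkbia, had log2 changes of 4.36, 4.05 and 3.30, and Zc3h12a, an RNase that destroys cytokine mRNAs, of 3.13 (largest adjusted p = 1.39e-12, limma). Target cytokines rose in 12 of 13 cases, with none lower at an unadjusted p under 0.05, and had the highest median relative change of the lists, 6.72. Cxcl2 was at 5328 TPM in barrier and 13.9 TPM in central tissues, Il1b at 2341 and 5.21 TPM, Cxcl3 at 689 and 1.22 TPM, and Il1a at 674 and 1.22 TPM. Il1b was highest in small intestine (4774 ± 1035 TPM, SD, n = 4), where Nfkbia was the lowest of the barrier tissues. Of the other targets, 15 of 21 were higher and 3 lower, led by Clec4e, a C-type lectin receptor, with a log2 change of 7.33 and Ccrl2, an atypical chemokine receptor, with 6.11.

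Immediate early genes, which respond within minutes to many stimuli including tissue dissociation, moved with the members. Of 36 tested, 33 were higher in barrier tissues and 2 lower, with Nr4a1, Nr4a3, Atf3 and Egr1 leading (log2 changes of 5.92, 5.89, 5.86 and 5.48). Their summed level was 10399 to 18257 TPM in small intestine, 22392 to 27081 in colon, 15318 to 19278 in skin and 9071 to 10084 in lung, against 3409 to 5804 in spleen, 2044 to 2269 in marrow and 5876 to 9766 in blood. Their part in the members' levels was not tested.

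Markers of other cells moved with the barrier comparison too. Of 11 neutrophil markers 10 were called lower and 1 higher in barrier tissues, and of 9 erythroid and platelet markers 7 were lower. The erythroid and platelet genes summed to 95.2 to 17811 TPM in small intestine, 115.3 to 373 in colon, 86.7 to 1534 in skin and 2287 to 29165 in lung, against 85.6 to 39595 in spleen, 7830 to 18502 in marrow and 39191 to 118875 in blood. Retnlg was at 5728 to 7679 TPM in small intestine, 11514 to 13836 in colon, 4295 to 12288 in skin and 65636 to 74895 in lung, against 51424 to 65457 in spleen, 16051 to 19450 in marrow and 58500 to 65464 in blood. The other 10 genes of the neutrophil list summed to 45.2 to 183 TPM in small intestine, 16.6 to 77.1 in colon, 16.4 to 35.4 in skin and 159 to 269 in lung, against 644 to 8892 in spleen, 48807 to 55402 in marrow and 26.9 to 74.4 in blood. Of 13 macrophage and monocyte markers, 8 were measured, and they summed to 579 to 931 TPM in small intestine, 416 to 462 in colon, 552 to 892 in skin and 413 to 499.9 in lung, against 529.7 to 1094 in spleen, 4506 to 5037 in marrow and 290.3 to 422 in blood. Of these, 4 were called higher and 2 lower in barrier tissues, and the complement genes C1qa and C1qb were at 0 in every blood library. All 3 stromal and endothelial markers measured were called higher in barrier tissues. They summed to 165 to 215 TPM in small intestine, 91.9 to 155 in colon, 7.65 to 45.8 in skin and 20.6 to 32.2 in lung. Their sum was 26.7 to 49.0 TPM in spleen, 26.7 to 34.8 in marrow and 34.4 to 53.4 in blood. Of 3 B and plasma cell markers, 1 was called higher and 1 lower. They summed to 1080 TPM in small intestine library 3 and 204 to 236 TPM in the others of that tissue. The part of these cells in the members' levels was not tested. Without all marrow libraries, an alternative chosen after seeing the data, all 10 members were still called higher in barrier tissues, also when the spleen library numbered 4, which held the highest sum of those 10 neutrophil genes among spleen libraries, was left out too.

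The genes most like Nfkbia and Nfkb1 over the 24 libraries were found by Pearson's r of log2(TPM + 1) among 7359 genes. The libraries fall into a barrier and a central cluster, which sets much of r, so r within the 13 barrier libraries is given beside it, all as descriptions. For Nfkbia they were Cdkn1a, a cell cycle inhibitor (0.97, and 0.90 in barrier), Emilin2 (0.97, 0.67), the cyclooxygenase gene Ptgs2 (0.96, 0.56), the thrombospondin gene Thbs1 (0.96, 0.93) and Srgn, the granule proteoglycan serglycin (0.96, 0.67). Within the 11 central libraries their r with Nfkbia was weaker, at 0.44, 0.38, 0.41, -0.59 and 0.57 in the same order. Cdkn1a was at 167 TPM in small intestine, 1838 in colon, 701 in skin and 632 in lung, and so had its lowest barrier level where Nfkbia did. For Nfkb1 they were Rrad (0.93, 0.89), Fam129b (0.92, 0.89), Nab2, a corepressor of EGR factors (0.92, 0.95), Isy1 (0.92, 0.90) and Card19 (0.91, 0.93), each with its highest mean in skin. Within the 11 central libraries their r with Nfkb1 was 0.57, 0.097, 0.038, 0.87 and -0.20 in the same order.

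Within the small intestine, eosinophils with the Nmur1 reporter had lower levels of the inhibitors, Traf1, Tnf and Sod2 than those without it. Of the 10 members, 8 were lower in Nmur1+ cells and none was higher, nor did any have an unadjusted p under 0.05 in that direction, where 5.25% of 7982 genes were called lower and 9.18% higher. That split of all genes depended on the scaling, with 419 lower and 733 higher as given, and 592 lower and 361 higher under median-ratio scaling. For 7 members every Nmur1+ library was below every Nmur1- library, as for 3.71% of all genes. The median relative change of the members was -2.01 (log2). In Nmur1+ cells the median gene itself was higher by 0.22 (log2), and the log2 changes of single genes in the sort do not have it subtracted. Among the subunits, Relb and Nfkb2 fell while Nfkb1 and Rel were not called.

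**Figure D4:**
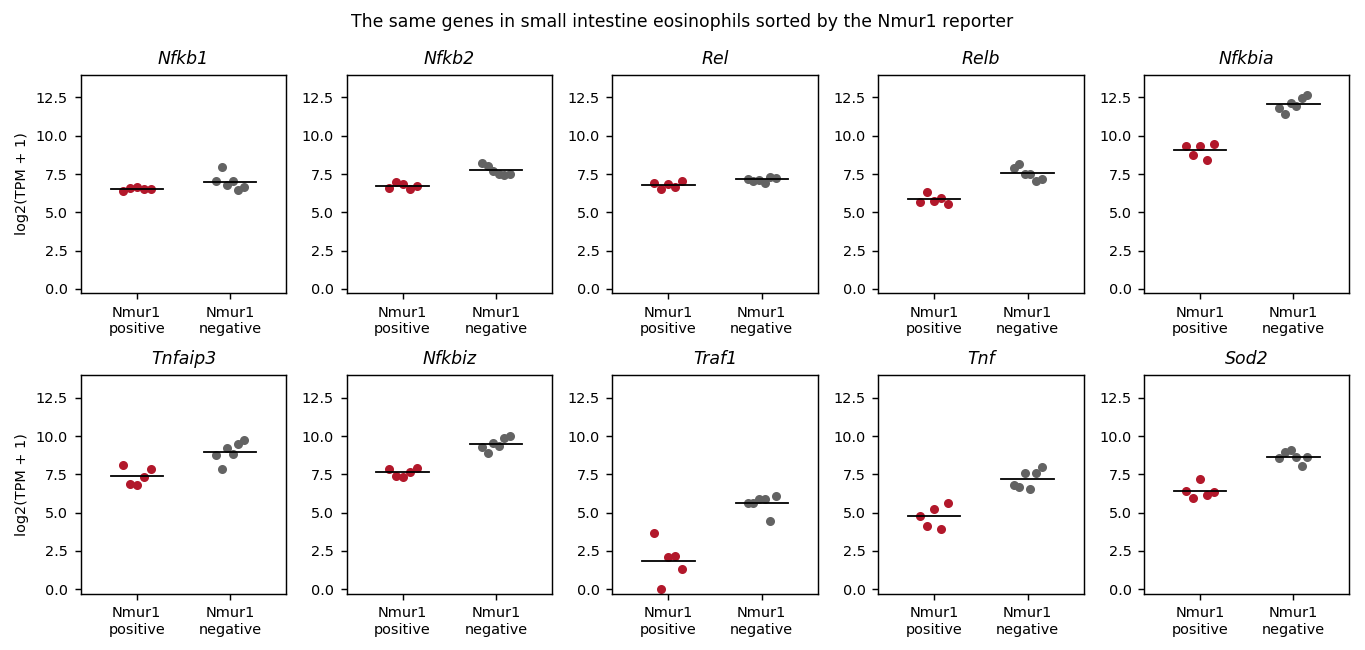
Level of each gene in every sorted small intestine library, as log2(TPM + 1) on the vertical axis, with Nmur1 positive (5) and Nmur1 negative (6) libraries along the horizontal axis. Points are libraries and lines are means of the log2 values. The groups do not overlap for Nfkb2, Relb, Nfkbia, Nfkbiz, Traf1, Tnf and Sod2, and they overlap for Nfkb1, Rel and Tnfaip3.

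Nfkbia was at 640.3, 435, 638, 348 and 694 TPM in Nmur1+ libraries, against 2692 to 6453 TPM (median 4260.0) in Nmur1- libraries. The highest Nmur1+ value was far under the lowest Nmur1- value. The log2 change was -3.02 ± 0.21 (adjusted p = 1.62e-07, limma). Set against the summed subunit TPM, Nfkbia stood at a ratio of 1.28 ± 0.35 in Nmur1+ cells (SD, n = 5) and 6.22 ± 2.75 in Nmur1- cells (n = 6), with ranges of 0.889 to 1.59 and 2.59 to 9.77.

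Tnfaip3 was at 274, 115.1, 109.7, 157 and 228 TPM in Nmur1+ libraries, against 234 to 838 TPM (median 532) in Nmur1- libraries. The first Nmur1+ library lay above the lowest Nmur1- library. The log2 change was -1.60 ± 0.29 (adjusted p = 0.00136, limma).

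Nfkbiz was at 227, 169, 162, 198 and 241 TPM in Nmur1+ libraries, against 468 to 1048 TPM (median 709) in Nmur1- libraries. All Nmur1+ values were under the Nmur1- range, and the log2 change was -1.87 ± 0.18 (adjusted p = 5.6e-06, limma). Traf1 was at 11.4, 0, 3.23, 3.40 and 1.44 TPM in Nmur1+ libraries, against 20.7 to 66.7 TPM (median 53.3) in Nmur1- libraries. Its log2 change was -3.77 ± 0.48 (adjusted p = 7.45e-05, limma), a value that depends on the pseudocount since the second value is 0, and that ranged from -4.69 to -2.11 over the alternatives.

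Tnf was at 26.3, 16.8, 37.0, 14.3 and 47.9 TPM in Nmur1+ libraries, against 92.7 to 252 TPM (median 148) in Nmur1- libraries (log2 change -2.45 ± 0.32, adjusted p = 7.68e-05, limma). Sod2 was at 82.2, 62.2, 146, 69.6 and 79.7 TPM in Nmur1+ libraries, against 267 to 535 TPM (median 393) in Nmur1- libraries (-2.25 ± 0.21, adjusted p = 3.11e-06). Both were separated without overlap, although the Sod2 value of Nmur1+ library 4, at 146 TPM, stood apart from the others.

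Relb was at 50.1, 79.4, 52.2, 59.6 and 44.7 TPM in Nmur1+ libraries, against 131 to 289.6 TPM (median 178) in Nmur1- libraries, a log2 change of -1.71 ± 0.21 (adjusted p = 4.54e-05, limma). Nfkb2 was at 97.1, 128, 112, 90.5 and 105 TPM in Nmur1+ libraries, against 173 to 293 TPM (median 196) in Nmur1- libraries, a log2 change of -1.0 ± 0.16 (adjusted p = 0.000565). This pair of the non-canonical pathway thus stood lower in every Nmur1+ library.

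Nfkb1 was at 83.7, 93.2, 100.1, 91.9 and 89.5 TPM in Nmur1+ libraries, against 85.5 to 248 TPM (median 119) in Nmur1- libraries, a log2 change of -0.45 with a 95% interval of -0.91 to 0.00 and an adjusted p = 0.168 (limma). Rel was at 121, 92.8, 114, 99.9 and 129 TPM in Nmur1+ libraries, against 119 to 158 TPM (median 141) in Nmur1- libraries, a log2 change of -0.34 with an interval of -0.63 to -0.04 and an adjusted p = 0.116. Both groups overlapped for each gene, and the intervals do not show equal levels. Rel was called lower only under median-ratio scaling (-0.52, adjusted p = 0.0188). Rela was lower in Nmur1+ cells (63.2 ± 10.7 TPM, SD, n = 5) than in Nmur1- cells (94.5 ± 15.8 TPM, n = 6), with an adjusted p = 0.0303.

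The share of Relb in the summed subunit TPM was 13.3 ± 2.7% in Nmur1+ cells (SD, n = 5) and 24.4 ± 2.7% in Nmur1- cells (n = 6), with ranges of 10.3 to 16.9% and 20.4 to 27.8%. The share of Rel was 26.1 ± 4.1% in Nmur1+ cells and 18.8 ± 4.4% in Nmur1- cells. The summed subunit level was 430.0 ± 31.0 TPM in Nmur1+ cells and 779 ± 164 TPM in Nmur1- cells.

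Targets and other regulators of NF-kappaB were more often called lower than higher in the sort. Of 85 other pathway genes tested, 10 were higher and 25 lower, where 9.18% of all genes were called higher and 5.25% lower. The median relative change of the 85 was -0.28. Of these 85, 3 were higher and 27 lower under median-ratio scaling, 7 and 23 under quantile normalization, and 10 and 26 with the replicate block. Of the 14 other inhibitors, 9 were lower and 1 higher in Nmur1+ cells. They included Zc3h12a at 10.96 ± 6.0 TPM in Nmur1+ cells and 55.4 ± 16.6 TPM in Nmur1- cells, Bcl3 at 11.9 ± 5.7 and 55.4 ± 23.9 TPM (SD, n = 5 and 6), Irak3, a damper of Toll-like receptor signals (log2 change -1.85), and N4bp1 (-1.57). The 1 inhibitor higher, Tnip2, named after its value was seen, was not called under median-ratio scaling, which left 9 lower and none higher. Quantile normalization gave 8 inhibitors lower and 0 higher, and the replicate block 8 lower and 1 higher. Of the 30 adaptors and kinases, 2 were lower, Rela and Birc3, an inhibitor of apoptosis. Another 2 were higher, Traf5 and Sharpin, neither called under median-ratio or quantile scaling. Both counts were near the shares over all genes. Of 7 receptors 1 was higher, with none lower at an unadjusted p under 0.05. That receptor was Tnfrsf1a, at 382 ± 54.3 TPM in Nmur1+ cells and 178 ± 30.1 TPM in Nmur1- cells (log2 change 1.10, adjusted p = 7.93e-05, limma).

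Of 12 target cytokines, 6 were lower and 3 higher in Nmur1+ cells. The counts were 8 lower and 2 higher under median-ratio scaling, 5 and 3 under quantile normalization, and 8 and 3 with the replicate block. Cxcl10, a chemokine of interferon and NF-kappaB responses, was at 22.8 ± 8.0 TPM in Nmur1+ cells and 262 ± 74.4 TPM in Nmur1- cells (log2 change -3.48, adjusted p = 1.07e-07, limma). Il6 was at 0 to 7.16 TPM in Nmur1+ libraries and 15.6 to 50.3 TPM in Nmur1- libraries, Il23a at 0 to 5 and 5.85 to 26.8 TPM, and Ltb averaged 21.2 TPM in Nmur1+ cells and 76.3 TPM in Nmur1- cells. The 3 that were higher, named after their values were seen, were the chemokine genes Ccl4, at 10030.0 ± 1910 TPM in Nmur1+ cells and 5242 ± 465 TPM in Nmur1- cells (0.92, adjusted p = 0.000124), and Ccl3, at 9731 ± 2254 and 5779 ± 888 TPM (0.74, 0.00255), and the cytokine gene Il1b, at 5332 ± 612 and 3874 ± 596 TPM (0.47, 0.014). Under median-ratio scaling Ccl3 and Ccl4 were called and Il1b was not (adjusted p = 0.176). Il1b was called higher under quantile normalization (adjusted p = 0.00206, limma) and with the replicate block (0.0122). So Tnf and Nfkbia were lower while Ccl3 and Ccl4 were higher in the same Nmur1+ libraries, all of them genes that rose in barrier tissues.

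Of 22 other targets, 8 were lower and 3 higher. Icam1, an adhesion receptor, was at 179 ± 19.9 TPM in Nmur1+ cells and 669 ± 78.7 TPM in Nmur1- cells (log2 change -1.90, adjusted p = 1.07e-07, limma), and the death receptor gene Fas was at 28.01 TPM in Nmur1+ cells and 163 TPM in Nmur1- cells. Marcksl1 and Clec4e had log2 changes of -2.39 and -2.10. The 3 called higher (Bcl2a1d, Cd80 and Plaur, named after their values were seen) were not called under median-ratio scaling, which left 8 lower. Quantile normalization and the replicate block each gave 3 higher and 8 lower. Plaur was called higher under both (adjusted p = 0.000837 and 0.00251, limma).

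**Figure D5:**
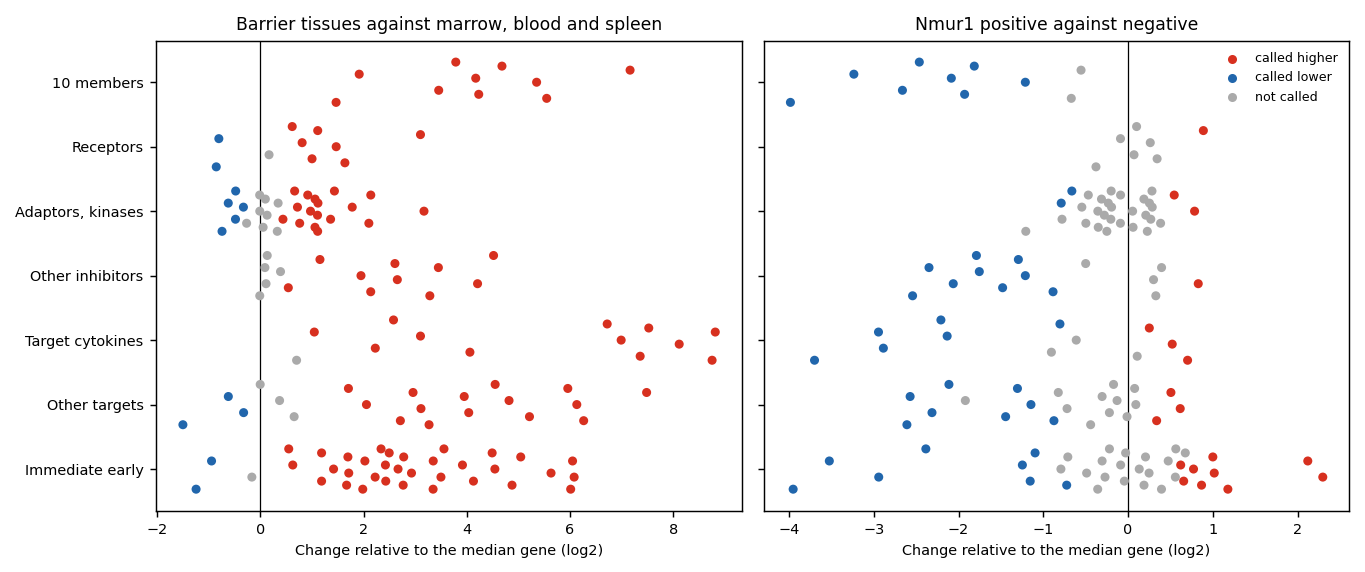
Log2 change relative to the median gene (horizontal axis) of every tested gene of each list (rows), for barrier against central tissues (left) and Nmur1 positive against negative cells (right). Points are genes, coloured by whether they were called, and their height within a row carries no value. The 10 members lie between 1.47 and 7.16 on the left and between -3.98 and -0.56 on the right, where target cytokines and immediate early genes are spread to both sides.

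Of 36 immediate early genes, 9 were higher and 8 lower in Nmur1+ cells, and their summed level overlapped (12409 to 39757 TPM in Nmur1+ libraries and 9831 to 26947 TPM in Nmur1- libraries). Myc (4.37 ± 2.35 TPM in Nmur1+ cells and 65.7 ± 14.5 TPM in Nmur1- cells), Dusp2, Ier3 and Fosl1 were lower, with log2 changes of -3.74, -3.31, -2.73 and -2.17. Egr2 and Nr4a2, named after their values were seen, were higher, at 589.7 ± 290.4 and 83.3 ± 39.0 TPM in Nmur1+ cells, against 118 ± 54.3 and 14.3 ± 8.5 TPM in Nmur1- cells. Macrophage markers moved with the sort too. The 7 measured summed to 692 to 947 TPM in Nmur1+ libraries and 346 to 529.6 TPM in Nmur1- libraries, with 3 called higher by limma and none lower (5 and 0 at an unadjusted p under 0.05). The lysozyme gene Lyz2 was at 281 ± 69.0 TPM in Nmur1+ cells and 67.0 ± 27.1 TPM in Nmur1- cells, C1qa at 20.4 ± 8.3 and 10.4 ± 5.1 TPM, C1qb at 29.3 ± 5.9 and 13.9 ± 3.9 TPM, and Csf1r at 23.7 ± 6.3 and 28.9 ± 9.2 TPM. These macrophage genes were named after their values were seen and make up only part of the sums. The remaining measured markers of that list are not given singly. Other marker lists differed as well. The 3 epithelial markers measured summed to 123 to 242 TPM in Nmur1+ libraries and 85.3 to 102 TPM in Nmur1- libraries. Pecam1, of the stromal and endothelial list, was at 155 to 235 and 78.0 to 145 TPM. The 4 neutrophil markers measured summed to 5815 to 9909 and 9315 to 12652 TPM, with 1 called higher and 1 lower. Nearly all of that sum was Retnlg, at 5777 to 9721 TPM in Nmur1+ libraries and 9219 to 12589 TPM in Nmur1- libraries. The other 3 genes summed to 26.9 to 188 and 30.3 to 427 TPM, which overlapped. Of the 8 eosinophil markers measured, 1 was called higher and 2 lower by limma. The part of these genes and cells in the members' lower levels was not tested.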

How the data were processed

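The authors deposited TPM values in 2 tables, 1 column per library, and the 24 tissue and 11 sorted columns were matched to samples by their titles. The tools named are STAR 2.7.5c, RSEM 1.3.3 and cutadapt 2.10, with mm10 as the genome, per the submitters' processing notes. Annotation and read totals are not given there. The lowest number of libraries above 0 for any listed gene was 3 in the tissue table and 6 in the sorted one. No columns were identical. A single-cell sample was not analysed here.

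From these values, log2(TPM + 1) was fitted with limma 3.58.1 in R 4.3.3 (group means, intensity-dependent prior variance), after keeping genes at 1 TPM or more in at least 3 tissue libraries (9806 genes) or 5 sorted libraries (7982 genes). All 7 tissues shared 1 fit. P-values were adjusted by Benjamini-Hochberg over all genes of a comparison, and 0.05 was the threshold. The code was tested on simulated data. The members and gene lists were chosen with earlier results of these data known. Beyond the members and Rela, up to 4 called genes per list with the largest changes were named, and others are marked as named after their values were seen. Alternatives were other pseudocounts, filters, scalings, a robust fit, the replicate number as a block, fits of fewer tissues and fits leaving out 1 library. In the sort, the 4 pairs of same-numbered libraries deviated together (r of 0.16 to 0.23). The 26 differently numbered pairs had r of -0.17 to 0.19, with 3 over 0.1, so their range overlapped. The numbers were taken to pair the samples in an alternative fit, and with that block 8 members were again called. The p-values given for the sort are from the fit without the block unless stated. Sequences are from RefSeq, and gene coordinates from GENCODE on GRCm38, the same build as mm10. A 95% interval is the model's.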

Additional observations from a re-analysis of the deposited data

Results flagged for a closer look

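Of 50 groups of 4 to 6 libraries examined, 4 held a library that stood apart from the others of its group by Dixon's criterion, and chance alone marks about 1 in 20. Traf1 was at 0.13 TPM in the second blood library and listed at 0 in the other 3. Tnf was at 91.1 TPM in the third small intestine library, against 75.7 to 77.3 TPM in the other 3. Sod2 was at 146 TPM in the Nmur1+ library numbered 4, against 62.2 to 82.2 TPM in the other 4. Nfkb1 was at 248 TPM in the Nmur1- library numbered 3, against 85.5 to 131 TPM in the other 5.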

How the results depend on the processing

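The 10 members stayed called higher in barrier tissues, and in small intestine, colon, skin and lung each against blood, under every alternative except quantile normalization, which left 9 in small intestine. In the sort, 8 were called in every fit but median-ratio scaling, which called 9, and 1 library left out left 8 in each case. Over 2448 recomputed member changes, 2304 kept their direction and call, 73 lost the call, 42 gained it and 29 turned sign.

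Counts moved as follows. A pseudocount of 0.1 TPM gave 5 members in small intestine against skin. A pseudocount of 10 TPM gave 2 in marrow against blood and 5 in small intestine against colon. Quantile normalization gave 1 in spleen against blood, and fitting only the 2 tissues gave 41 genes of all there. With 1 library left out, counts of members ranged from 2 to 6 in marrow against blood, from 0 to 2 in spleen against blood (69 to 119 genes of all), from 5 to 10 in small intestine against skin and from 3 to 7 in skin against lung.

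Sign changes were mostly against lung. Under median-ratio scaling, small intestine minus lung became -0.35 for Tnfaip3, -0.019 for Rel and -0.46 for Relb, colon minus lung -0.31 for Nfkb2, -0.50 for Rel and -0.15 for Relb, and skin minus lung -0.60 for Nfkbia, -0.22 for Tnf, -0.15 for Sod2 and -0.072 for Nfkb2. Under quantile normalization, small intestine minus lung became -0.17 for Tnfaip3 and -0.29 for Relb, colon minus lung -0.081 for Nfkb2 and -0.36 for Rel, and marrow minus blood -0.12 for Traf1. The cause was not tested.
With 1 library left out, changes that turned in at least 1 fit ranged from -0.21 to 0.38 for Nfkbia and -0.048 to 1.15 for Tnf in skin minus lung, from -0.044 to 0.082 for Rel in colon minus lung, from -0.067 to 0.072 for Nfkb2 and -0.10 to 0.17 for Relb in small intestine minus lung, from -0.13 to 1.07 for Tnf in colon minus skin, and from -0.85 to 0.30 for Traf1 and -0.17 to 0.10 for Sod2 in small intestine minus colon.

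In the tissues, same-numbered libraries did not deviate together (62 pairs, r of -0.045 to 0.088). This does not settle whether they came from the same mouse, which the labels do not say. With the replicate block, 10 members and 5145 genes were called between barrier and central tissues, 1 member (Nfkbiz, adjusted p = 0.0232, limma) in spleen against blood, and Nfkb2 in small intestine minus lung became 0.023. Calls gained were Nfkbia in marrow against blood (0.0485), Nfkbiz in small intestine against colon (0.0105) and colon against lung (0.015), and Tnfaip3 in skin against lung (0.0198). Calls lost were Tnf in marrow against blood (0.0701) and small intestine against skin (0.0619), and Sod2 in colon against skin (0.0512). In the sort the block changed no member's call and called 1342 genes, against 1152 without it.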
